A study of Mus musculus with 4 samples.

Results

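The nonclustered cadherins and protocadherins are the adhesion genes that lie outside the tandem arrays of the clustered protocadherins. They were taken as every protein-coding gene on the 19 mouse autosomes whose symbol is Cdh or Pcdh followed only by digits. This gave 33 genes, 23 named Cdh and 10 named Pcdh, of 20807 autosomal protein-coding genes. Pcdh19, on chromosome X, also has such a symbol and was left out by the rule. CTCF ChIP-seq, the sequencing of DNA pulled down with the protein, was carried out on frozen left cerebral cortex from female B6CASTF1/J mice aged 2 months. By the strain's name these are first-generation hybrids of C57BL/6J and CAST/EiJ. All animals had this genotype, sex and age, and the labels name no treatment and no control group. The 4 libraries were 2 technical replicates each of pool I and pool J, and each pool held 4 biosamples, with a size range of 200 to 600 bp. The deposited peak lists had already merged the technical replicates, so there is 1 list per pool, no value per library and no depth, and the comparisons below are descriptions without a test.

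CTCF is a zinc finger protein that binds a long, directional DNA motif and, with cohesin, holds chromatin loops whose anchors mostly carry motifs that point at each other. Cadherins are calcium-dependent adhesion proteins. The classical type I and type II cadherins join cells of like kind and link to actin through catenins, while the delta protocadherins adhere more weakly and signal to the cytoskeleton during the growth of axons and synapses. In the cortex, different neurons carry different sets of these proteins. In the clustered protocadherin arrays CTCF sites at promoters take part in promoter choice, and the nonclustered genes have no such array.

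Of the 143 CTCF motif matches at distinct sites in and within 50 kb of the 33 genes, 12 are shown. They come from the GRCm38 reference, which is the C57BL/6J allele only, read 5′ to 3′ on the strand of the motif, with the 20 matched bases in capitals and 15 bases to each side. The motif was learned from these peaks, with the consensus GTGGCCACCAGGGGGCGCTA, and 0 of the peaks it was learned from lay at a member gene. The first 5 sequences are the strongest member sites by the deposited signal value, leaving out that of Pcdh1, which is not shown. The next 3 are the other promoter matches, and the last 4, chosen after their letters were seen, have flanks that resemble each other.
Cdh15 upstream, chr8:122830577-122830626, minus strand: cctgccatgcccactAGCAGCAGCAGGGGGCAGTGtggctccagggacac
Cdh13 intron, chr8:118850538-118850587, minus strand: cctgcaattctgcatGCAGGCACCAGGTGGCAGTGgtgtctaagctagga
Cdh23 intron, chr10:60408054-60408103, plus strand: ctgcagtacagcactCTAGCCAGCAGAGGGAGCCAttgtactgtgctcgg
Cdh23 promoter, chr10:60697156-60697205, minus strand: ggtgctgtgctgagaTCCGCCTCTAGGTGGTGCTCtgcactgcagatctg
Cdh26 downstream, chr2:178507561-178507610, plus strand: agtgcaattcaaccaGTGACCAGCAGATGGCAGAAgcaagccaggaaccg
Cdh24 promoter, chr14:54641859-54641908, minus strand: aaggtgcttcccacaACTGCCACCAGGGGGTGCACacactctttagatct
Cdh20 intron beside the start site, chr1:104769420-104769469, minus strand: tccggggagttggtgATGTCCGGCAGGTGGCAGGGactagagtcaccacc
Pcdh9 promoter, chr14:93890912-93890961, plus strand: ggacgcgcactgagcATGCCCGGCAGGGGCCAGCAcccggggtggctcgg
Cdh4 intron, chr2:179449159-179449208, plus strand: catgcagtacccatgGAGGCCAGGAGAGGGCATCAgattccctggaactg
Cdh24 upstream, chr14:54669584-54669633, minus strand: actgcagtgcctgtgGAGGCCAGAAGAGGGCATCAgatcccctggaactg
Cdh13 intron, chr8:119311567-119311616, plus strand: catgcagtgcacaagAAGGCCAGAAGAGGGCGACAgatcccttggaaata
Pcdh15 intron, chr10:73400596-73400645, minus strand: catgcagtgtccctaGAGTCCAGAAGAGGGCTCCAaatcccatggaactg

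CTCF lay at the start of the member genes more often than at genes in general, and inside them more sparsely per kb. In the conservative list, which takes the 2 pools as its inputs and holds 44672 peaks, 13 of the 33 members (39.4%) had a peak summit within 1000 bp of a transcription start site (TSS), against 21.4% of all autosomal protein-coding genes. The other lists gave 13 members against 24.5% of all genes (the optimal list, made from pooled reads), 17 members (51.5%) against 38.6% (pool I) and 13 members against 26.0% (pool J). A summit lay inside 26 members (78.8%) against 47.0% of all genes in the conservative list. For the optimal, pool I and pool J lists these were 27 members against 49.8%, 30 against 60.8% and 26 against 50.7%. Split by gene length in the conservative list, members were clearly above all genes only under 30 kb, with 6 of 8 against 30.2%. From 30 to 100 kb 4 of 8 members had a summit inside against 70.5%, and from 100 to 300 kb 7 of 8 against 91.9%. Over 300 kb it was 9 of 9 against 97.2%. The part of length in the contrast over all members was not tested. Just outside the genes the members did not stand apart: 28 (84.8%) had a summit within 50 kb but not inside, against 85.0% of all genes, and in the optimal, pool I and pool J lists 28, 29 and 28 did, against 86.4%, 89.9% and 86.6%.

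**Figure D1:**
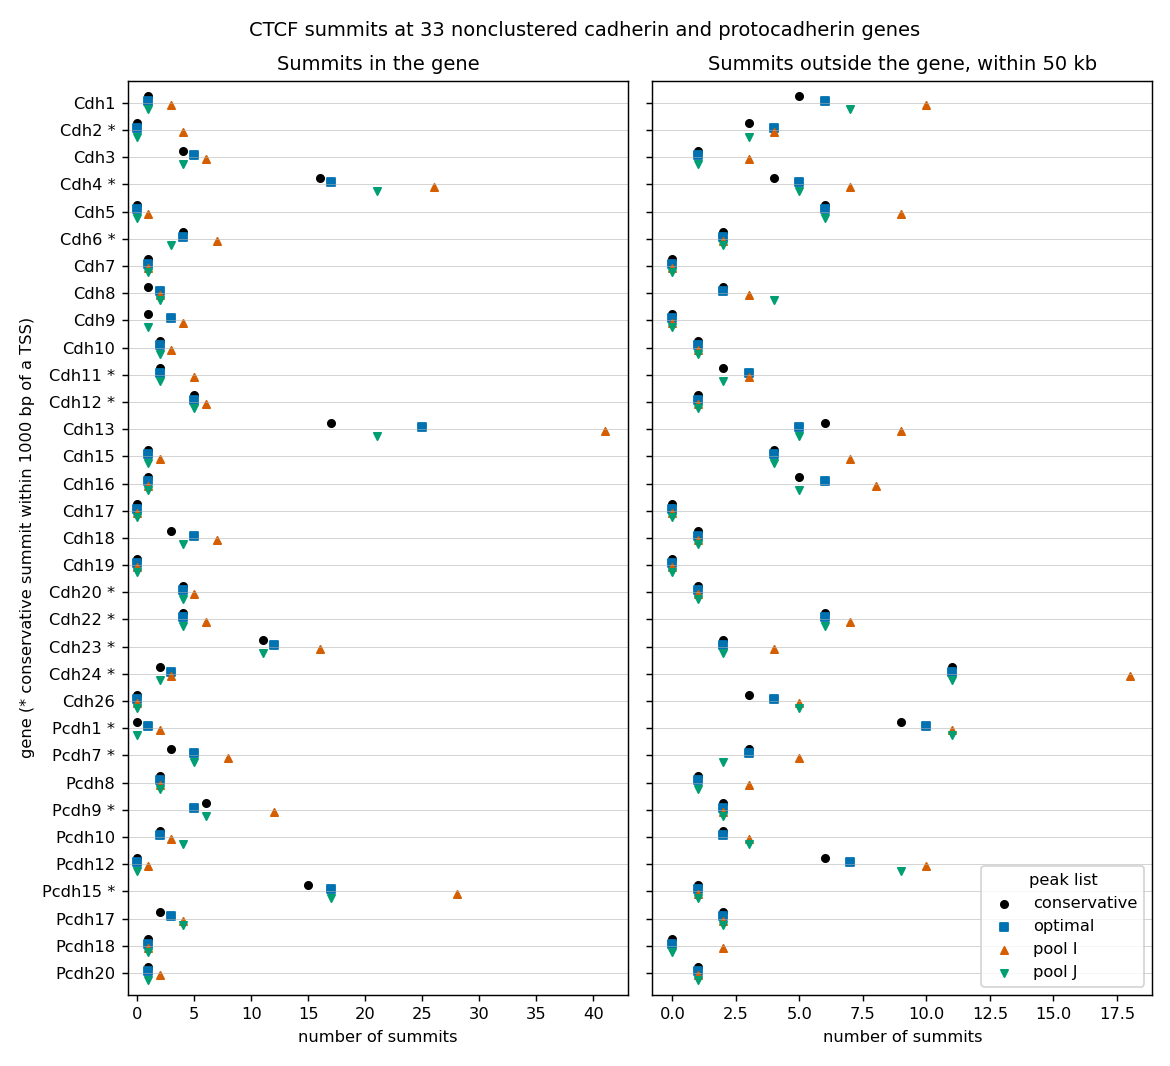
Number of CTCF peak summits (x axes) inside each of the 33 genes (left) and outside it within 50 kb (right) in the 4 peak lists, with 1 symbol per list. Pool I gives the most summits inside most genes, with 41 in Cdh13, and Cdh17 and Cdh19 have none in any of the 4 lists in either panel.

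Gene length and CpG content moved with the promoter calls, and their part in the result was not tested. The 13 members with a promoter summit had a median length of 227 kb and a median CpG observed/expected ratio of 0.73 in the 1001 bases around the 5′ end. For the 20 members without one, these were 58.5 kb and 0.474. Among genes over 300 kb, 6 of 9 members (66.7%) had a promoter summit against 36.8% of all 541 such genes. From 100 to 300 kb it was 5 of 8 against 30.9%, from 30 to 100 kb 0 of 8 against 24.9%, and under 30 kb 2 of 8 against 18.3%. By CpG ratio, 8 of 12 members at 0.7 or more had one, against 31.1% of all genes in that class, while 3 of 11 did from 0.4 to 0.7, against 27.9%, and 2 of 10 below 0.4, against 8.48%. The ratio describes the 5′ end only, and for Cdh12, Pcdh7 and Pcdh15 the promoter summit lay at another TSS. A call could come from any TSS of a gene, so genes with more TSSs had more windows. The median number of TSSs was higher in members than in all genes under 30 kb (2 against 1) and over 300 kb (3 against 2). It was lower in members from 30 to 100 kb and from 100 to 300 kb. The part of TSS number in the promoter shares was not tested.

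The promoter summits of the members were mostly weak. The 14 of them ran from a signal value of 92.9 to 617 with a median of 154, against a median of 236 for the 4634 promoter summits of all autosomal genes. No source used here gives the unit of the signal value, so each value is also given as its percentile among the conservative peaks. The median percentile was 28.4 for the members and 45.0 for all. A CTCF motif lay within 50 bp of 5 of the 14 (35.7%, 95% exact binomial interval 12.8 to 64.9), against 41.6% of all promoter summits. Such intervals here cover counting only, and sites of one gene are not independent. Cdh23, Pcdh1 and Cdh24 were the 3 strongest, at the 92.6 percentile or higher, and Pcdh7 came next at 63.8.

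Cdh23 encodes a very long cadherin of the tip links of inner ear hair cells and was the strongest of these promoters. Its summit lay 701 bp before the TSS with a signal value of 617 (97.6 percentile), and the peak had 376 in pool I and 248 in pool J, the values of its 2 inputs. Pcdh1, a delta-1 protocadherin also found in airway epithelium, had its summit 850 bp before the TSS at 614 (97.4 percentile), with 356 in pool I and 263 in pool J. Cdh24, a type II cadherin, had 566 (92.6 percentile) at 533 bp before the TSS, with 348 and 224. That summit is also within 1000 bp of a start of Gm17606, which spans it, so it cannot be assigned to one gene. All 3 summits carried a motif on the strand of the gene, the letters of which are shown above for Cdh23 and Cdh24.

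Among the type I cadherins, Cdh2 and Cdh4 had a promoter summit, and both were weak and without a motif. Cdh2 encodes N-cadherin, the main classical cadherin of neurons and their precursors. Its summit lay 545 bp before the TSS at 99.4 (9.20 percentile), with 70.2 in pool I and 30.0 in pool J. Cdh4 (R-cadherin, first described in retina) had 141 (24.5 percentile) at 270 bp after its nearest TSS, with 98.3 and 40.5. Cdh1, Cdh3 and Cdh15, the cadherins of epithelium, placenta and muscle, had none in this list.

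Of the 13 type II cadherins, 6 (46.2%) had a promoter summit, near the 39.4% of all members, and 5 of these 6 were below the 50 percentile. Cdh22, a cadherin of brain and pituitary, had a pair of summits, at 55 bp after the TSS (236, 44.9 percentile) and at 164 bp before it (126, 19.7 percentile). The first had 171 in pool I and 68.5 in pool J, and the other 98.6 and 34.2. Cdh6 had 158 (29.4 percentile) at 70 bp after the TSS, with 107 and 51.8. Both genes have summits almost on the start site itself, and neither has a motif match there. Cdh11, known from bone-forming cells, had 92.9 (6.68 percentile) at 540 bp after the TSS, with 60.1 and 32.7. Cdh20 had 94.8 (7.37 percentile) at 935 bp after the TSS, with 66.8 and 32.6, and a motif on the opposite strand.

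At 3 members the promoter summit belonged to a TSS other than the 5′ end of the gene. Cdh12, a brain cadherin, had 182 (34.9 percentile) at 496 bp before an internal TSS, 57.9% of the way along its span, with 112 in pool I and 65.6 in pool J. Pcdh15, the partner of Cdh23 in the tip link, had 110 (13.4 percentile) at 15 bp before an internal TSS, 722586 bp from its 5′ end, with 82.2 and 28.5. For Cdh12 and Pcdh15 the 5′ end of the gene is not itself a TSS used here. Pcdh7, a delta-1 protocadherin, had 370 (63.8 percentile), with 256 and 119, at 624 bp from its nearest TSS and 1754 bp from its 5′ end. Counted at the 5′ end alone, 10 members had a promoter summit. The same share over all genes was not computed, so this count has no background to be read against. Pcdh9, the remaining delta-1 gene, had 150 (27.3 percentile) at 236 bp before its 5′ end, with 105 and 43.0, and a motif on the opposite strand. In this list and window all 3 delta-1 protocadherins thus had a promoter summit and none of the 4 delta-2 genes did. The contrast depends on both settings. The summits of Pcdh1 and Pcdh7 lay 850 and 624 bp from the TSS, and the nearest delta-2 summits 1242 to 2468 bp from one. In the pool I list Pcdh8 and Pcdh18 had a promoter summit.

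The promoter call differed between lists at 4 members, each called in the pool I list only. Cdh1 (E-cadherin, of epithelium) had a pool I signal of 35.5 at 32 bp before the TSS, with a motif on the opposite strand. Cdh13 (T-cadherin, which is held by a lipid anchor and has no cytoplasmic tail) had 50.6 at 90 bp after it, and Pcdh8 49.5 at 46 bp before it. Pcdh18 had 29.0 at 209 bp before its nearest TSS. Among all pool I peaks these stood at the 23.3, 37.7, 36.9 and 14.5 percentiles. The first 3 overlap a peak of the ranked pool J list before its threshold, and that of Pcdh18 does not.

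The window decided how many members had a summit at the start. Within 500 bp it was 6 members (18.2%) against 16.1% of all genes, close to the background. Within 5000 bp it was 25 (75.8%) against 40.0%. For most of these members the nearest summit thus lay 500 to 5000 bp from a TSS. That zone holds more bases than the one within 500 bp, and no share per base was computed. Some of the summits in that zone were strong. Cdh11 had a summit in its intron 4508 bp from the start at 603 (96.5 percentile), and Cdh10, a synaptic type II cadherin, one at 2609 bp at 593 (95.6 percentile). Pcdh15 had one at 569 (93.0 percentile), 1096 bp before its 5′ end. It lies 723621 bp from the nearest TSS used for that gene, so it is not in these counts. At Cdh11 the summit near the TSS, at 92.9, was thus much weaker than the one farther inside, which is also within 1000 bp of a start of Gm45258.

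Around the starts, motifs pointed mostly along the gene, and farther inside mostly against it, a pattern noticed after the values were seen. Of 32 motif matches within 10 kb of a member's 5′ end, 24 (75.0%, 56.6 to 88.5) lay on the gene's own strand, against 52.9% for all genes. Of 64 matches farther inside, 21 (32.8%, 21.6 to 45.7) did, against 48.8%. The 32 matches belong to 18 genes, and 14 of these had at least 1 on the own strand. The same share over all genes was not computed, so this count of genes has no background to be read against. All 3 at Pcdh15, all 3 at Pcdh17 and both at each of Cdh5, Cdh23 and Pcdh20 pointed along the gene, whereas the single ones at Cdh8, Cdh20, Cdh22 and Pcdh8 pointed against it. The 3 at Pcdh15 lie near its 5′ end but 715776 to 723621 bp from the nearest TSS used for that gene. Part of this holds in long genes at large: over 300 kb, all genes had 63.1% along the gene near the start and 49.5% farther inside, and the members of that length 9 of 12 (75.0%) and 17 of 48 (35.4%).

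**Figure D2:**
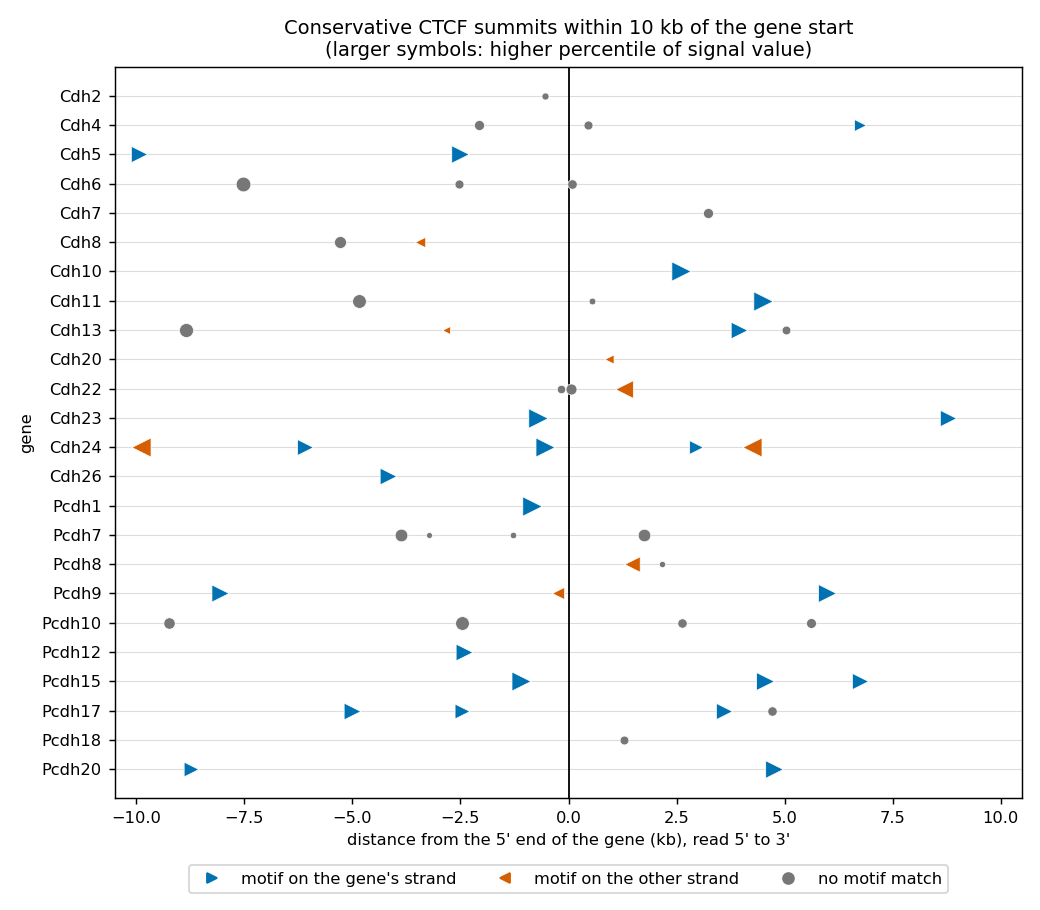
Conservative CTCF summits within 10 kb of the 5′ end (x axis, kb, gene read 5′ to 3′) of the 24 members that have one, 57 summits in all. Arrowheads give the motif strand, grey points have no motif match, and size grows with the percentile of signal value; 24 of the 32 arrowheads point along the gene.

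The delta-2 protocadherins Pcdh8, Pcdh10, Pcdh17 and Pcdh18 had no promoter summit in the conservative list, but each had 1 or 2 inside its long first coding exon. In these genes that exon encodes the whole extracellular part, and several of the proteins steer actin through the WAVE complex. Pcdh8, an activity-regulated protocadherin, had 303 (54.8 percentile) at 1479 bp and 83.4 (3.60 percentile) at 2165 bp from the start, in a coding exon of 2625 bp. Both sites are also within 1000 bp of a start of Gm9748, so they cannot be assigned to Pcdh8 alone. Pcdh17 had 356 (61.8 percentile) at 3603 bp and 156 (28.8 percentile) at 4701 bp, in one of 2559 bp. Pcdh10 had 154 (28.4 percentile) at 2615 bp and Pcdh18 137 (23.4 percentile) at 1282 bp, in coding exons of 2688 and 2487 bp. The stronger site of Pcdh8 and that of Pcdh17 carried a motif and the other 4 did not.

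Pcdh7 had its promoter summit in such an exon too, of 3174 bp. In all, 8 of the 32 summits inside member protocadherins (a share with an interval of 11.5 to 43.4%) lay in coding exons, 7 of them in the gene's longest one, against 3 of 80 (3.75%, 0.78 to 10.6) inside member cadherins and 5.11% over all genes. The 3 cadherin sites were in Cdh15, Cdh22 and Cdh24. Long coding exons offer more bases to such summits, and the shares were not adjusted for that. The other summits inside members were 96 in introns and 5 in exons outside the coding sequence.

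Inside the genes, the conservative list had 112 summits over 9.18 Mb of member genes, or 1.22 per 100 kb (95% exact Poisson interval 1.00 to 1.47) against 2.35 for all genes. The ratio was 0.52, and 0.539, 0.504 and 0.502 in the optimal, pool I and pool J lists. Length again goes with this value, since long genes have fewer summits per kb: over 300 kb, members had 1.07 and all genes 1.36 per 100 kb. From 100 to 300 kb it was 1.33 against 2.22, from 30 to 100 kb 1.75 against 2.81, and under 30 kb 6.63 against 3.83. Of the 112 summits 79 (70.5%, 61.2 to 78.8) had a motif, against 66.2% of the 22802 summits in all genes, each counted once. Their median signal of 236 was close to the 242 of those summits in all genes.

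**Figure D3:**
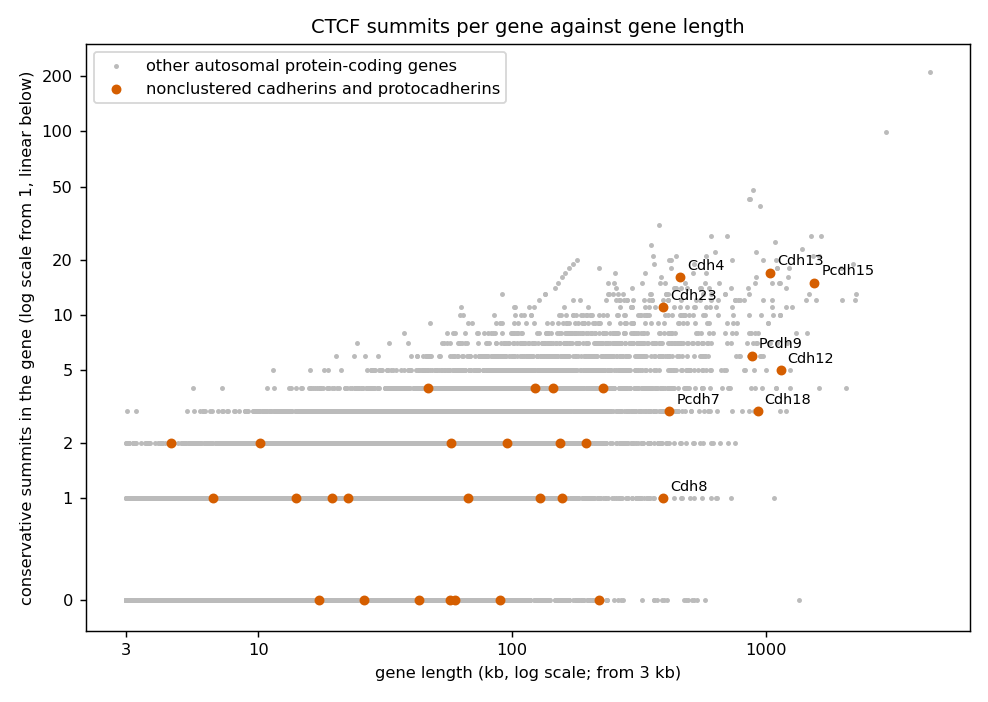
Conservative CTCF summits per gene (y axis, log scale from 1 and linear below) against gene length (x axis, kb, log scale) for autosomal protein-coding genes of 3 kb or more in grey and the 33 members in orange. Among the labelled members over 300 kb, Cdh4 with 16 summits and Cdh8 with 1 mark the extremes for their length.

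Cdh13, Cdh4, Pcdh15, Cdh23 and Pcdh9 had the most summits. Cdh13 (chromosome 8, 118283733 to 119324921, plus strand) had 17 in 1041 kb in the conservative list, and 25, 41 and 21 in the optimal, pool I and pool J lists. Its strongest lay 54.4% of the way along at 629 (98.3 percentile), with 382 in pool I and 251 in pool J. Its weakest, at 13.6, lies in the same pool I and pool J peaks as a neighbouring summit. Pcdh15 (chromosome 10, 73099342 to 74649737, plus strand) had 15 in 1550 kb, and 17, 28 and 17 in the other lists. Cdh23 had 11 in 394 kb, and 12, 16 and 11, with a second site as strong as its promoter at 624 (98.0 percentile) inside an intron. Pcdh9 had 6 in 877 kb, and 5, 12 and 6.

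Cdh4 was the most densely bound of the long members. It had 16 summits in 457 kb, or 3.50 per 100 kb, the 95.3 percentile of density among genes over 300 kb, and 17, 26 and 21 summits in the other lists. Between 92.1% and 95.3% of the way along the gene lay 6 intron sites, with signal values of 326, 120, 297, 327, 493 and 478, and all 6 carried a motif on the strand opposite to the gene. The 3 sites downstream of the gene, at 197, 333 and 204, carried one on the gene's strand, but they lie inside Taf4 and cannot be assigned to Cdh4. Cdh23 stood at the 89.7 percentile of density, Cdh13 at 68.3, Pcdh15 at 40.6, Pcdh7 at 26.5 and Pcdh9 at 24.9.

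The 3 type II cadherins over 300 kb were the opposite case. Cdh8, which marks subsets of cortical neurons, had 1 conservative summit in 392 kb (171, 32.5 percentile), the 5.82 percentile of density. It left a stretch of 365 kb with none. The optimal, pool I and pool J lists each had 2 summits in Cdh8, and a summit 59.2% of the way along lay inside that stretch. Cdh18 had 3 conservative summits in 925 kb (9.89 percentile of density) with a stretch of 428 kb, and 5, 7 and 4 summits in the other lists. Cdh12 had 5 in 1140 kb (13.8 percentile), and 5, 6 and 5. Its longest stretch in the conservative list, 660 kb, lies before the first TSS used for it. In Cdh18 too the 5′ part of the gene precedes the TSSs used. There a summit of the optimal list 2730 bp from the 5′ end lay 484711 bp before the nearest TSS. The shorter type II genes varied widely, from 0 summits in Cdh5 and Cdh19 to 3.24 per 100 kb in Cdh22 and 19.7 in Cdh24. Cdh10 had 2 summits and a stretch of 182 kb with none, Cdh7 and Cdh9 had 1 summit each, and Cdh20 had 4, of which 3, at 429, 356 and 503, lay toward its 3′ end after a stretch of 175 kb with none. The 13 type II cadherins had 29 summits, or 0.777 per 100 kb. The 5 type I cadherins had 22 (2.72), the 5 other cadherins 29 (1.84), the delta-1 protocadherins 9 (0.683), the delta-2 7 (4.09) and the other 3 protocadherins 16 (1.02).

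**Figure D4:**
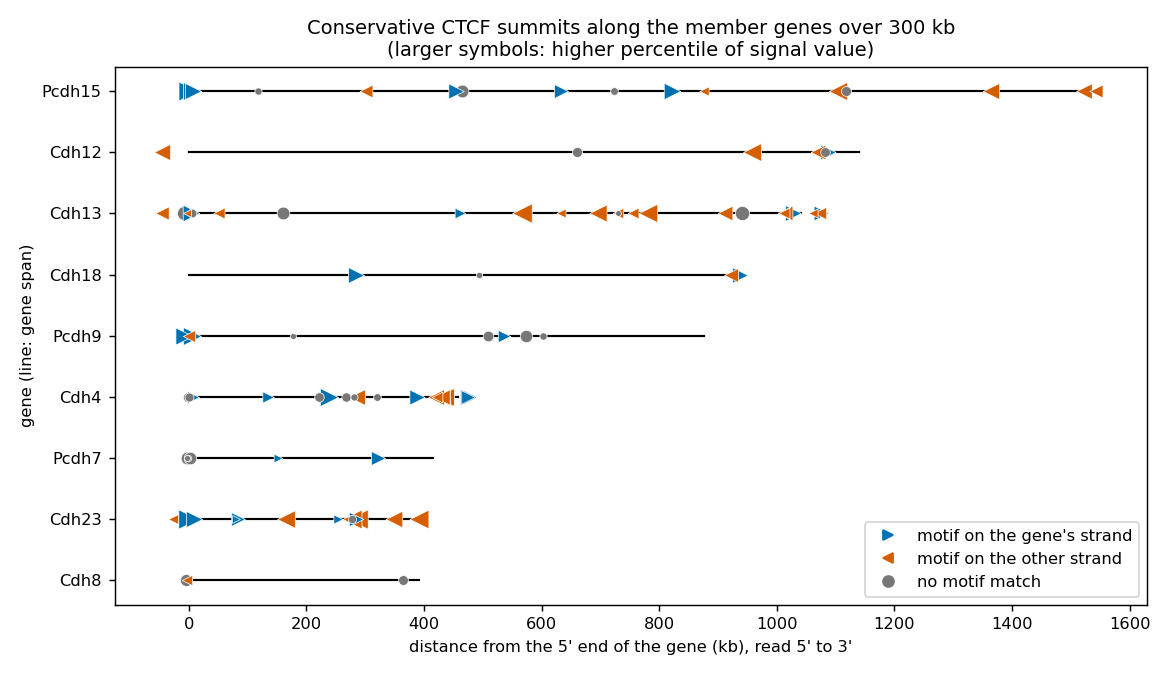
Conservative CTCF summits along the 9 members over 300 kb (x axis, distance from the 5′ end in kb; the black line is the gene span). Arrowheads give the motif strand, grey points have no motif match, and size grows with the percentile of signal value; Cdh12 has none in its first 660 kb and Cdh8 none in 365 kb, while sites of Cdh4 crowd near its 3′ end.

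The strongest sites of the members lay inside genes, at promoters and outside alike. The highest was 17356 bp upstream of Cdh15 (M-cadherin, of muscle) at 652 (99.2 percentile), with 385 in pool I and 268 in pool J, inside the span of Gm20388. Next came the intron sites of Cdh13 and Cdh23 and then the promoters of Cdh23 and Pcdh1, all given above. The site downstream of Cdh26 had 604 (96.6 percentile), with 367 and 239. Weak and strong sites often shared a gene: at Cdh15 the other 4 sites ran from 93.2 to 592. A further motif sometimes found upstream of CTCF sites, searched as TGCANT in the 20 bases before each match on its strand, was present at 26 of 143 member matches (18.2%, 12.2 to 25.5) and 14.6% of all, so it did not set the members apart.

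7 members had no conservative summit inside the gene. Cdh17, a cadherin of liver and intestine, and Cdh19, a glial cadherin of peripheral nerve, had none in the gene or within 50 kb in any of the 4 lists. In the conservative list the other 31 members (93.9%) had at least 1 there, as did 88.0% of all genes. Their nearest conservative summits were 75.6 kb and 265 kb away. In the ranked lists before the threshold, Cdh17 had 4 peaks inside in pool I and 0 in pool J, and Cdh19 had 0 and 1. The endothelial genes Cdh5 (VE-cadherin) and Pcdh12 each had 6 summits within 50 kb but none inside, Cdh26 had 3 and Pcdh1 9. Cdh2, at 220 kb the longest of the 7, had 3, and in the pool I list 4 inside.

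The shorter genes, several of them known mainly from epithelia, were not without strong sites. Cdh1 had 1 intron summit at 583 (94.6 percentile), with 357 in pool I and 232 in pool J and a motif against the gene. Cdh16, the kidney cadherin, had 1 intron summit at 593 (95.5 percentile), with 348 and 252, in a gene of 22.5 kb. Cdh3 (P-cadherin) had 4 intron summits in 46.4 kb, at 392, 159, 142 and 123, each with a motif, and 3 of these lay against the gene. Cdh24, a gene of 10.1 kb, had 2 inside, at 565 and 203, and 11 within 50 kb, the most of any member. Several of those 11 lie in the neighbours Acin1, Psmb5 and 4931414P19Rik, so they cannot be assigned to Cdh24. Pcdh20 had 1 in an exon outside the coding sequence at 458 (76.4 percentile), with 298 and 159.

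Members that neighbour each other shared 4 sites. The type I genes Cdh1 and Cdh3 lie next to each other on chromosome 8, and 1 summit at position 106561265 between them (363, 62.8 percentile) is within 50 kb of both. Pcdh1 and Pcdh12 share 3 summits on chromosome 18, at 38239363, 38241129 and 38260720, with 313, 182 and 105.

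Some member sites resembled each other beyond the motif. With 15 bases on each side compared without gaps, 32 of 122 sites outside exons shared at least 18 of 30 flanking letters with another member site. Chromosome 18 was left out of these member sites, and with it the motif matches of Cdh2, Pcdh1 and Pcdh12. Most of these, 21 of 32, had their summit in sequence that the reference masks as repeat, while 25 of all 122 did. The Cdh4 intron site at 6751 bp from the start had the most such matches, 15, in 8 genes, among them those of Cdh24, Cdh13 and Pcdh15 printed beside it above. The same likeness to this Cdh4 site was found at 2834 of 30499 motif matches of the whole list (9.29%), of which 79.7% were masked. The Cdh4 site was picked for its 15 likenesses among 121 other member sites, so the shares are not compared. In rodents, a family of short repeats is known to have spread CTCF motifs. The member sites of this kind had a median percentile of 40.3 and the other 106 had 58.8. Over the whole list these medians were 32.4 and 61.9, so the gap is not particular to the members. Inside the members, 14.3% of summits were in masked repeats (8.39 to 22.2), against 21.4% over all genes.

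Nearly all pool J peaks in the members were also pool I peaks, and pool I listed many more. The pool I list has 82131 peaks and the pool J list 52658. Of 212 pool I peaks inside members, 125 (59.0%, 52.0 to 65.7) overlapped a pool J peak, against 60.2% over all genes. Of 130 pool J peaks, 126 (96.9%, 92.3 to 99.2) overlapped a pool I peak, against 97.2%. Of the 87 pool I peaks without a pool J partner, 44 overlapped a peak of the ranked pool J list. For the 112 conservative summits the log2 of the pool I signal over the pool J signal had a median of 1.18 and an SD over sites of 0.35, against 1.12 and 0.38 for all genes, and 0 of them lay more than 2-fold from the median of the whole list, against 114 of 22802 summits in all genes. The signal scale is not matched between pools, so the median ratio cannot tell a difference in binding from one of scale.

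**Figure D5:**
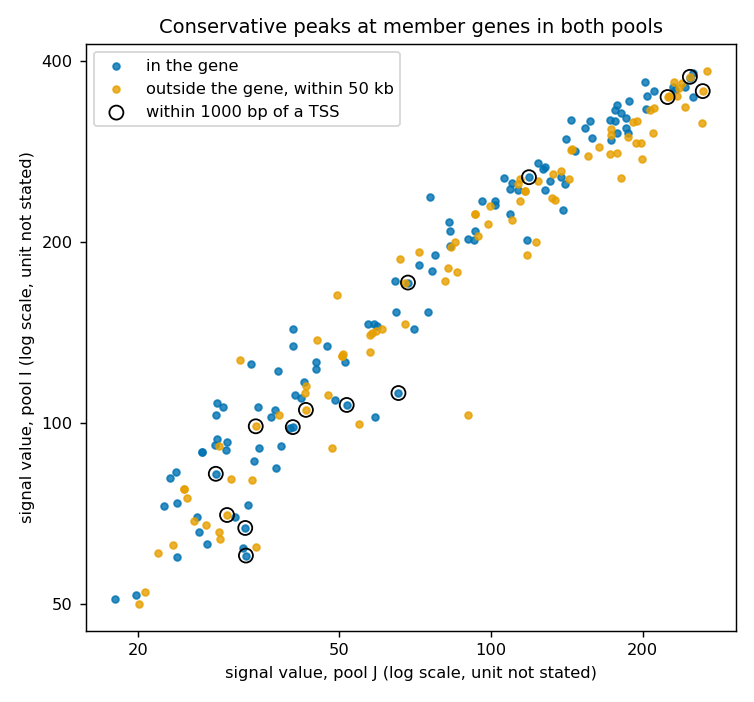
Signal value of the pool I input (y axis, log scale) against that of the pool J input (x axis, log scale) for each conservative peak in or within 50 kb of a member. Circled promoter peaks lie in the same band as the others, and 3 of them, at Cdh23, Cdh24 and Pcdh1, are at its upper end.

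Related genes outside the rule differed in how often they had a promoter summit. Of 28 other cadherin superfamily genes (Fat, Dachsous, Celsr, desmosomal cadherins and the like), 5 (17.9%) had one in the conservative list and 16 had a summit inside. The strongest were at Fat1 (82.0 percentile), a giant cadherin, Celsr1 (39.2), of planar polarity, and Fat4 (35.4). Of the X-linked delta protocadherins Pcdh11x had 0 promoter summits and 2 inside, and Pcdh19 0 and 1. Of 25 catenins and junction partners 10 (40.0%) had one and 22 had a summit inside, with Nectin1 (87.5), Nckap1 (80.4) of the WAVE complex and Nectin2 (79.0) the strongest. The 57 clustered protocadherins had one at 41 (71.9%), against the 13 of 33 of the nonclustered genes. These shares were not tested against each other, and the clustered genes share start regions and sites.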

How the data were processed

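CTCF ChIP-seq peak lists of 2 pools of mouse cortex were analysed, with mm10 coordinates per the submitters' processing notes. No source used here gives the aligner, the peak caller or their versions. The authors merged the technical replicates of each pool and deposited 4 lists thresholded at an irreproducible discovery rate (IDR) of 0.05, plus the ranked lists before that threshold. The pool signals beside each conservative peak are those of its 2 inputs. The deposited columns read were the scaled IDR score, the signal value, comparable only within a list, and, in the ranked lists, the −log10 IDR. A summit is the peak start plus its summit offset.

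Summits were assigned to GENCODE M21 genes within 1000 bp of a TSS, in the gene, and outside it within 50 kb, with Python 3.11.15, numpy 2.4.6, pandas 2.3.3 and SciPy 1.17.1. The 1000 conservative peaks of highest signal on the odd autosomes served to learn a 20-base motif in 5 rounds. A match needed a score that 1% of flanking windows pass and a centre within 50 bp of the summit. Scripts were tested on simulated data. The depth is unknown, so no precision per value can be given. Intervals are 95% exact binomial (Clopper-Pearson) or Poisson.

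Full values are given for members with a promoter summit, with the most or strongest summits, with none inside, or whose promoter call differs between lists. The members and lists were chosen with earlier results of these data known. Length, CpG, TSS number, strand, coding exon and flank descriptions were added after the values were seen. Chromosome X was left out by the rule.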

Additional observations from a re-analysis of the deposited data

How the results depend on the processing

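With no value per library, the peak list, the window and the motif threshold were varied. The promoter window moved the count of members with a summit at the TSS from 13 to 6 at 500 bp and 25 at 5000 bp. The pool I list gave 212 summits inside members and a motif share of 54.7%, and a motif threshold passed by 0.1% of flanking windows gave 11.6%. Requiring an overlap of 50% of both peaks gave 48.1% of pool I peaks and 78.5% of pool J peaks shared. With equal numbers of peaks these were 84.4% and 90.0%. With the 0.1% threshold, chosen after seeing the data, 4 of 4 motifs near the start (100%) and 2 of 11 farther inside (18.2%) were on the gene's own strand. Of 53 alternative values 42 stayed within their main count's 1.5-fold range or main value's interval or spread, and 11 moved as above. No paired analysis was possible because each list merges the technical replicates of its pool and the replicate numbers only name libraries, and for the same reason no library could be left out. Depth is unknown, so weak sites missing from a list were not detected there rather than shown absent.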
